A study of Mus musculus with 3 samples.

Results

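Vertebrate cells remove 5-methylcytosine from DNA in steps, and 10 genes that take part in this were followed here: the TET dioxygenases Tet1, Tet2 and Tet3, the DNA glycosylases Tdg, Smug1, Mbd4 and Neil1, the AP endonuclease Apex1, the TET partner Ogt and the cofactor-supplying enzyme Idh1. Their rows were taken by gene symbol from a list drawn up with earlier results of these data known, and all 10 were found among the 24054 genes of the deposited expression table. RNA came from cultured primary cortical neurons of C57BL/6 mice at embryonic day 17, grown for 7 days. The control culture stood at 21% oxygen, the hypoxia culture at 0.2% oxygen for 7 hours with no T3 (triiodothyronine, the active thyroid hormone), and the third at 0.2% oxygen for 7 hours with 5 nM T3. Each of these 3 groups had 1 library, so the spread between cultures is unknown and no difference was tested across replicates. The labels do not state whether the control medium held thyroid hormone, and the cultures are not described as pure neurons.

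TET enzymes oxidise 5-methylcytosine to hydroxymethyl, formyl and carboxyl forms, and they need oxygen, iron and 2-oxoglutarate for it. The last 2 forms are cut out as bases by TDG, after which APEX1 opens the backbone and base excision repair fills the gap with plain cytosine. In neurons this route is known for its part in activity-dependent gene regulation, and hydroxymethylcytosine is abundant in the brain.

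All 3 TET transcripts were lower in hypoxia than in control, while the later genes of the route were level or modestly higher, apart from Smug1, which was lower. With T3 added under hypoxia, Tet1 stood slightly above its control level, by an amount that depended on how the libraries were scaled. Tet2 was near its control level, and Tet3 was still far below its own. At this depth the folds of Tet1 and Tet2 over control could not be told apart. Levels are given in CPM (reads of a gene in every 1000000 of the TMM-adjusted library), and folds are ratios of CPM. Each fold is followed by its exact 95% interval, which accounts for read counting and for nothing else. Where 3 values of a gene stand in a row, they follow the order control, hypoxia, hypoxia with T3. The libraries held 17118865 to 22533574 reads. As a check of the labels, 4 of 5 hypoxia-inducible genes fixed for this purpose were at least 2-fold higher in hypoxia than in control and the fifth, Egln3, was 1.90-fold higher (1.45 to 2.52). The T3-inducible genes Hr and Klf9 were 5.02-fold and 2.68-fold higher with T3 than without it under hypoxia.

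The stretches of DNA just before the RefSeq starts of the TET genes are shown because the question of these samples, low oxygen and thyroid hormone, concerns factors that bind short DNA words: hypoxia-inducible factor (HIF) at ACGTG or GCGTG, and thyroid hormone receptors at repeats of AGGTCA. Only bases outside every annotated exon are printed, 5′ to 3′ on the strand of the gene, in GRCm38.p6. Capitals mark one of these words on either strand.
Tet1, chr10:62887325-62887412, minus strand: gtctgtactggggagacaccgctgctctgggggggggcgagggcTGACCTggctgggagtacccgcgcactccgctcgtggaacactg
Tet2, chr3:133544391-133544640, minus strand: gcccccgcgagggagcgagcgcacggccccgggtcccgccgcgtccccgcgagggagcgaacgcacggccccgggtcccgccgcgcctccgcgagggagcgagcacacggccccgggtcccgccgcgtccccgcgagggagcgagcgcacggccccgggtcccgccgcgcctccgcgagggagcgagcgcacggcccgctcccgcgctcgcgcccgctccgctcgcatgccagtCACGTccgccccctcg
Tet3, chr6:83441679-83441754, minus strand: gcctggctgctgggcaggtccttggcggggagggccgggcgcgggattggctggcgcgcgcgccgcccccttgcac
In the 250 bases before the start, Tet1 held 1 AGGTCA word, which 14.0% of 32851 mouse promoters of this length hold, and no HIF word. Tet2 held 1 ACGTG word, which 16.6% hold, and Tet3 held none of the 3 words. All 3 RefSeq starts lie inside the GENCODE spans of their genes. Of the 250 bases, 100 before the Tet1 start are in its own exons and 174 before the Tet3 start are in exons of B230319C09Rik, and these are not printed. For Tet1 only the longest run outside exons, 88 bases, is printed, and other bases outside exons in its window were left out. A word is a match of letters, not a bound site, and its absence from this window says nothing of the factor.

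Tet3, a TET enzyme with an N-terminal CXXC domain in its long form, stood at 130 CPM in the control library, 63.2 in hypoxia without T3 and 71.1 with it, from 2805, 1144 and 1671 reads. It was high in control and low in both hypoxic libraries. It was 2.06-fold lower in hypoxia than in control (1.92 to 2.21) and 1.83-fold lower in hypoxia with T3 than in control (1.72 to 1.94). Between the hypoxic libraries it was 1.12-fold higher with T3 (1.04 to 1.21). In these bulk samples, fewer cells that express a gene and less of its RNA per cell cannot be told apart.

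Tet1, the founding member of the family, had 52.9 CPM in the control library, 35.6 without T3 under hypoxia and 61.8 with T3, from 1141, 645 and 1454 reads. The hypoxia library was the lowest and the library of hypoxia with T3 the highest. Tet1 was 1.48-fold lower in hypoxia than in control (1.35 to 1.64) and 1.74-fold higher in hypoxia with T3 than in hypoxia (1.58 to 1.91). Over control it was 1.17-fold higher with T3 (1.08 to 1.26), or 1.02-fold with the libraries scaled to equal sums. The hypoxia library enters the first and second of these folds, which are therefore not independent.

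Tet2, whose CXXC domain was split off in evolution into the neighbouring gene Cxxc4, had 38.7, 31.5 and 40.9 CPM. The order of libraries matched that of Tet1, over a smaller range. Tet2 was 1.23-fold lower in hypoxia than in control (1.10 to 1.37) and 1.3-fold higher with T3 than without it under hypoxia (1.17 to 1.44). Between hypoxia with T3 and control the fold was 1.06 (0.963 to 1.16), which this depth cannot tell from no difference, and its direction turned under equal sums (1.08-fold lower).

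**Figure D1:**
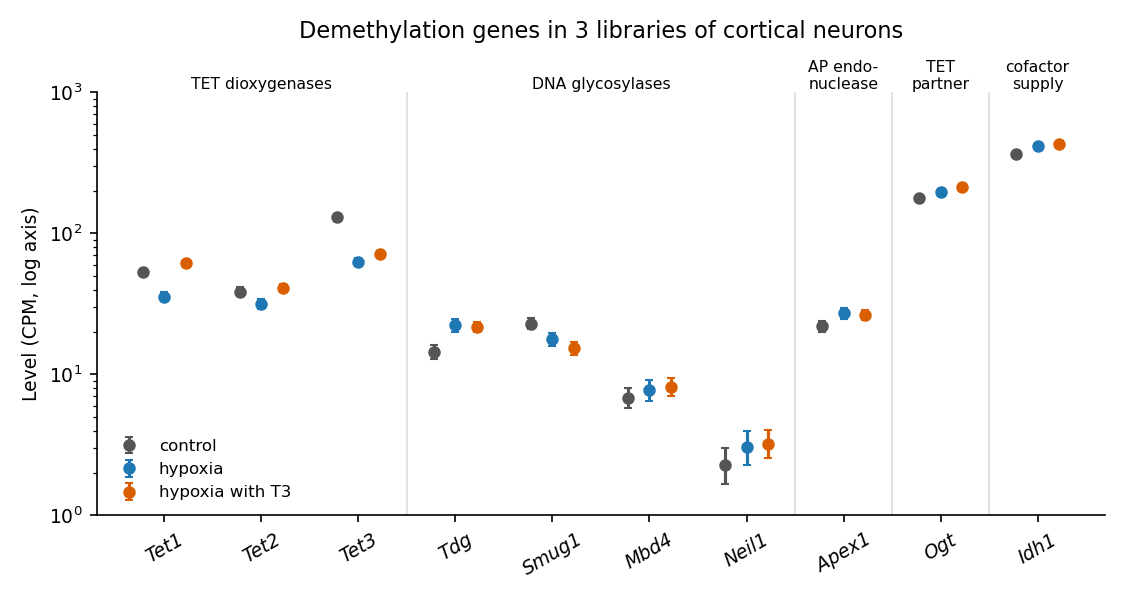
Level of each gene (CPM, log axis) in control, hypoxia and hypoxia with T3, 1 library each, with exact 95% Poisson intervals for read counting. Tet1, Tet2 and Tet3 have their lowest point in hypoxia (35.6, 31.5 and 63.2 CPM), whereas Idh1 and Ogt have theirs in control.

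Against the whole table, the hypoxic fold of Tet3 was in the tail and those of its relatives were not. Over the 12692 genes whose mean reached 1 CPM, ratios were taken on the log2 scale after adding 1 CPM, and a gene counted as called at 2-fold or more on that scale. In hypoxia over control 6.90% of all genes were called in either direction and 4.92% as lower. Of the 10 members 1 was called, Tet3, at a log2 ratio of −1.03 that 585 genes, 4.61%, matched or went below. A share of 1 in 10 is near that background, and the median log2 ratio of the members, 0.15, was close to that of all genes, 0.05. Tet1, at −0.56, had 14.7% of genes at or below it.

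With T3 over hypoxia the ratios of most genes were small, and Tet1 was among the highest. The central 50% of all genes lay between −0.06 and 0.09 on the log2 scale, and 0.189% of genes were called in either direction. No member was called. At 1.5-fold 0.717% of all genes were higher, and 1 of the 10 members was, Tet1 at 0.78. Only 34 genes of 12692, 0.268%, had a ratio as high as that of Tet1, itself included, whereas 393 reached that of Tet2 and 1707 that of Tet3. The median of the members was 0.07 and that of all genes 0.01. Of 1862 genes as low as Tet1 or lower in hypoxia over control, 11, Tet1 included, were above control in hypoxia with T3. For Tet3 the same count was 0 of 585 genes. Over all genes 56.4% were above control in hypoxia with T3. Each cut was set at the value of the TET gene itself. With most ratios of T3 over hypoxia small, few genes this low could reach control. The place of Tet1 among the 11 rests on a log2 ratio over control of 0.22, which was 0.03 with equal sums.

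For hypoxia with T3 over control, 6.65% of all genes were called in either direction and 4.59% as lower, and none of the 10 members was. At 1.5-fold 13.1% of all genes were lower, and 1 member was, Tet3. Tet3, at −0.86, came nearest, and passed 2-fold at −1.05 once the libraries were scaled to equal sums. The members' median was 0.23 beside 0.08 for all genes. These 3 comparisons share libraries and are not independent of each other.

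**Figure D2:**
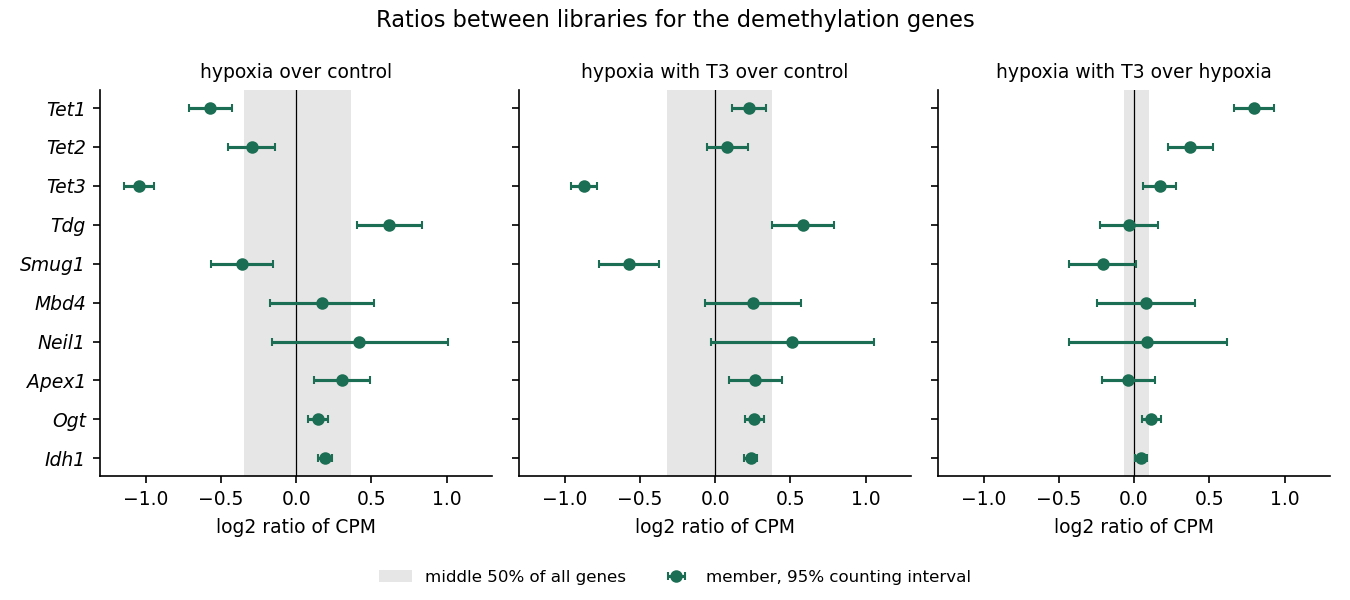
Log2 ratio of CPM for each gene in the 3 comparisons, with exact 95% intervals for read counting, and a grey band for the middle 50% of all 12692 genes. Tet3 lies far left of the band in both comparisons with control, and Tet1 lies far right of it for hypoxia with T3 over hypoxia.

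Together the 3 TET genes summed to 222, 130 and 174 CPM. The sum was 1.70-fold lower in hypoxia than in control (1.62 to 1.79) and 1.33-fold higher with T3 than without it (1.27 to 1.40). These sums and folds depend on the scaling of the libraries, whereas the share of each gene within a library does not. Tet3 made up 58.7% of the summed TET reads in control (95% Wilson interval 57.3 to 60.1), 48.5% in hypoxia (46.5 to 50.5) and 40.9% in hypoxia with T3 (39.4 to 42.4). Tet1 made up 23.9% (22.7 to 25.1), 27.3% (25.6 to 29.2) and 35.6% (34.1 to 37.1). The intervals of Tet3 did not overlap between any of the libraries, and neither did those of Tet1. Corrected for exonic length, the share of Tet3 was 57.7%, 47.6% and 39.9%.

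The genes of the family also differed from each other in their folds, except for Tet1 and Tet2 in hypoxia with T3 over control. There the fold of Tet1 was 1.11 times that of Tet2 (0.978 to 1.25), which this depth cannot tell from no difference. In hypoxia over control the fold of Tet1 was 1.39 times that of Tet3 (1.23 to 1.56) and that of Tet2 was 1.68 times that of Tet3 (1.48 to 1.91). In hypoxia with T3 over hypoxia the fold of Tet1 was 1.54 times that of Tet3 (1.37 to 1.74) and 1.34 times that of Tet2 (1.16 to 1.54). These exact conditional intervals again cover read counting only.

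**Figure D3:**
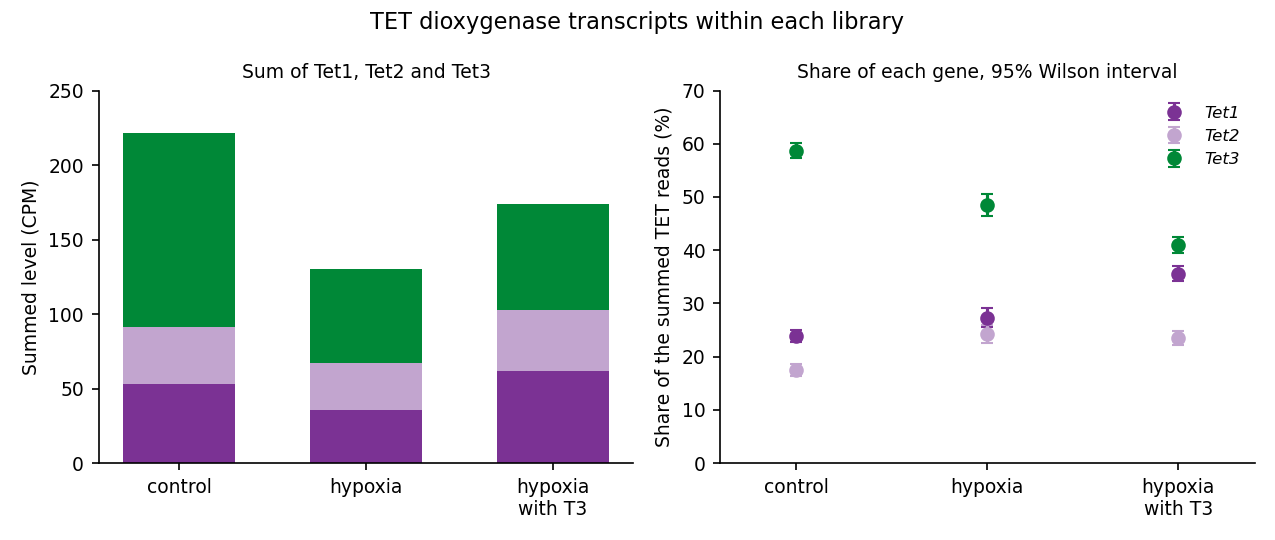
Left, levels of Tet1, Tet2 and Tet3 stacked for each library (CPM); right, the share of each gene in the summed TET reads (%), with 95% Wilson intervals. The sum is 222, 130 and 174 CPM, and the share of Tet3 is 58.7%, 48.5% and 40.9% in control, hypoxia and hypoxia with T3.

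Gene span, the distance from first to last exon, moved with the hypoxic ratio over the whole table, and its part in the TET values was not tested. Median log2 ratios of hypoxia over control were 0.33 for genes under 10 kb, 0.18 for those of 10 to 30 kb, −0.12 for those of 30 to 100 kb and −0.35 for those of 100 to 300 kb. Tet1 (GRCm38 chromosome 10, 62804570 to 62908996, minus strand) spans 104 kb, Tet2 (chromosome 3, 133463679 to 133545139, minus strand) 81.5 kb and Tet3 (chromosome 6, 83362373 to 83459084, minus strand) 96.7 kb. In the class of 30 to 100 kb, Tet3 was 0.91 below the median, with 179 of 3663 genes at or below it. Its span is near the upper bound of that class, where 5.24% of genes were called as lower. In the class of 100 to 300 kb 17.9% were, and the lower quartile was −0.80, beside −1.03 for Tet3. Tet1 was 0.20 and Tet2 0.17 below their class medians, both within the middle of their classes. Tet1 lies just past the same bound, and its −0.56 was under the lower quartile of the 30 to 100 kb class, −0.46. Of the other members, Mbd4, Neil1, Apex1 and Idh1 were each within 0.04 of their class medians in hypoxia over control. Tdg was 0.41 and Ogt 0.26 above theirs, and Smug1 was 0.52 below. For hypoxia with T3 over hypoxia the class medians were all between −0.01 and 0.02. There Tet1 stood 0.77 above its class, and 2 of 1528 genes of 100 to 300 kb, Tet1 among them, were as high.

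**Figure D4:**
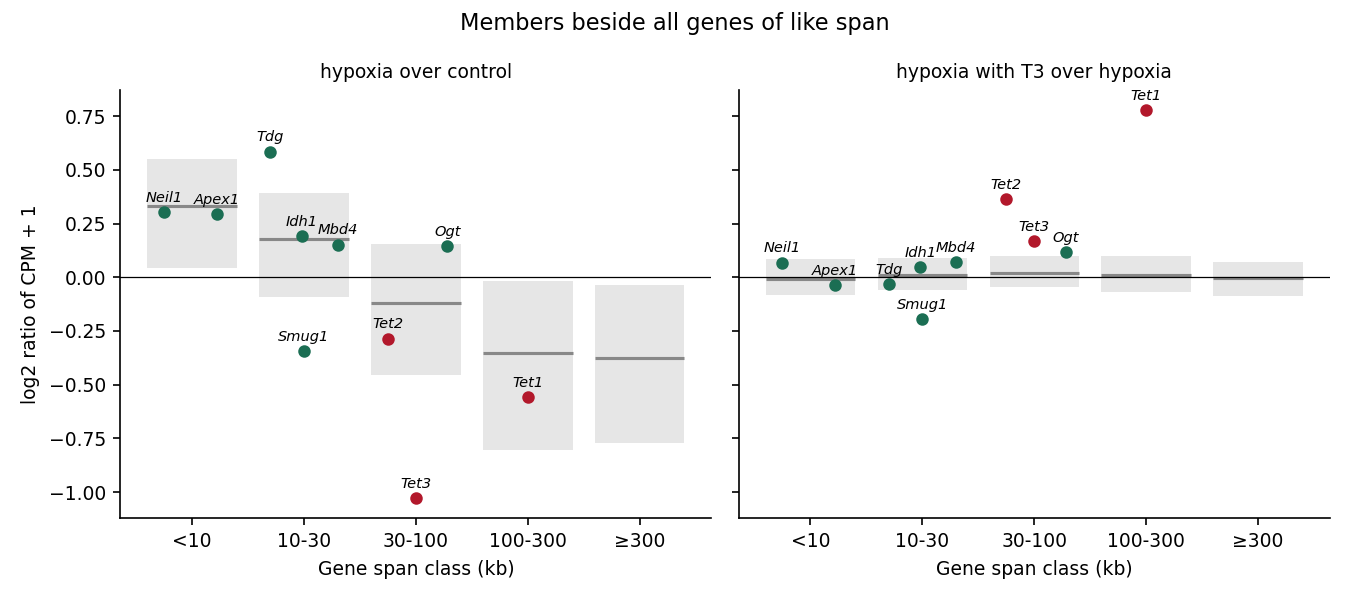
Log2 ratio of CPM + 1 for each member (red, TET genes; green, others) beside all genes of the same span class (bar, middle 50%; line, median). In hypoxia over control Tet3 lies well under its class while Tet1 and Tet2 lie inside theirs, and in hypoxia with T3 over hypoxia Tet1 is at 0.78 against a class median of 0.01. Tet3, at 96.7 kb, and Tet1, at 104 kb, lie on either side of the bound between 2 classes.

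By likeness of pattern, measured as the distance in the plane of the log2 ratios of hypoxia over control and hypoxia with T3 over hypoxia, the nearest of 10364 genes whose mean reached 5 CPM to Tet3 were Slc20a2, Ntng1, Fam73a, Acap2 and Tns3. Their distances were 0.01 to 0.03 over the 3 libraries. Slc20a2, a phosphate transporter, was at 18.8, 8.67 and 9.78 CPM, and Ntng1, a membrane-anchored netrin relative, at 12.7, 5.69 and 6.42 CPM. Both spans are long, 92.8 kb and 364 kb.

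The glycosylases, which cut a damaged or modified base from its sugar, went in different directions. Tdg, the enzyme that removes formylcytosine and carboxylcytosine, was listed at 14.5, 22.3 and 21.7 CPM. That is 1.53-fold higher in hypoxia (1.32 to 1.78) and 1.5-fold higher in hypoxia with T3 (1.3 to 1.73), both over control. The reads of Tdg are not firmly assigned, because 41.8% of its 31-base words also occur in transcripts of other genes. One of these is Gm9855, which RefSeq names Tdg-ps2 and lists as a transcribed pseudogene, and which had 110 CPM in the control library and 107 in both hypoxic ones. The sum of Tdg and Gm9855 was 124, 129 and 129 CPM, 1.04-fold in hypoxia over control (0.985 to 1.10). Since Gm9855 makes up most of the sum, the listed values of Tdg beside an unchanged Gm9855 would give 1.06-fold, which lies in the same interval. The sum therefore does not tell a higher level of Tdg from a different split of reads. Tdg lies on chromosome 10 (82629828 to 82650799, plus strand).

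Smug1, a glycosylase for uracil and hydroxymethyluracil, had 22.8, 17.8 and 15.4 CPM. It was lower in both hypoxic libraries, by 1.28-fold (1.11 to 1.48) and 1.48-fold (1.29 to 1.70). It lies on chromosome 15 (103153290 to 103167092, minus strand). At −0.34 on the log2 scale it lay 0.52 below the median of its span class of 10 to 30 kb. Between the hypoxic libraries it was 1.16-fold lower with T3, with an interval from 0.991 to 1.35. The fold of Tdg in hypoxia over control was 1.97 times that of Smug1 (1.60 to 2.43), with the doubt on the reads of Tdg given above.

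Mbd4, which pairs a methyl-CpG-binding domain with a glycosylase for mismatched thymine, was at 6.86, 7.73 and 8.16 CPM from 148, 140 and 192 reads. Neil1, a glycosylase for oxidised bases that can stimulate TDG turnover, was at 2.27, 3.04 and 3.23 CPM from 49, 55 and 76 reads. Their folds of hypoxia over control were 1.13 (0.888 to 1.43) and 1.34 (0.894 to 2.01). They lie on chromosome 6 (115840697 to 115853371) and chromosome 9 (57142800 to 57148305), both on the minus strand. Neither gene had a difference detectable at this depth in any of the 3 comparisons, and Mbd4 changed sign in hypoxia over control when libraries were scaled to equal sums.

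Apex1, which cuts the DNA backbone at the site left by a glycosylase, had 21.9, 27.1 and 26.4 CPM, with both hypoxic libraries above the control library. It was 1.23-fold higher in hypoxia than in control (1.09 to 1.40) and 1.09-fold higher with equal sums. Genes of like span, under 10 kb, had a median log2 ratio of 0.33, and Apex1 was at 0.29. Apex1 lies on chromosome 14 (50924968 to 50927139, plus strand). Its exons overlap those of Pip4p1 on the opposite strand over 877 of 1422 exonic bases. Pip4p1 is listed in the table as Tmem55b at 59.5, 67.8 and 66.3 CPM. The kit keeps strand, but whether the counting used it is not given in the sources used here.

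The DNA before the starts of Tdg and Apex1 is shown since they were the members with more than 1 HIF word. In each window CACGTG, which reads as ACGTG on both strands and is also the E-box word, was counted as 1 site.
Tdg, chr10:82629588-82629827, plus strand: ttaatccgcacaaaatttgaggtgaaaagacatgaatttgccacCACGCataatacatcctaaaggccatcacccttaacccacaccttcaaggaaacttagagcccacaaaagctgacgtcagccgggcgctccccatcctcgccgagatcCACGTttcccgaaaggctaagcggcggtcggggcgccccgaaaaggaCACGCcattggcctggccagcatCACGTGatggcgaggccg
Apex1, chr14:50924894-50924948, plus strand: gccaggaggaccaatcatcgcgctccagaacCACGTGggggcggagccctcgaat
Over the whole 250 bases Tdg held 4 sites and Apex1 held 3. Of all promoters 38.6% held at least 1 such site, 4.65% at least 3 and 1.49% at least 4. The RefSeq start of Apex1 was not found in its annotated transcripts, and 195 of the 250 bases lie in exons of Osgep and are not printed.

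Ogt, the enzyme that adds O-linked N-acetylglucosamine to proteins and binds TET2 and TET3, had 179, 198 and 214 CPM. Idh1, which makes 2-oxoglutarate from isocitrate in the cytosol, was at 367, 419 and 432 CPM. Both were lowest in control and highest with T3. Ogt lies on chromosome X (101640060 to 101684351, plus strand) and Idh1 on chromosome 1 (65158616 to 65186500, minus strand). Ogt was 1.11-fold higher in hypoxia than in control (1.06 to 1.16), which turned to 1.02-fold lower with equal sums, and Idh1 was 1.14-fold higher (1.11 to 1.18), or 1.01-fold with equal sums. With T3 over hypoxia they were 1.08-fold (1.04 to 1.13) and 1.03-fold (1.0 to 1.06) higher. With equal sums the all-gene median in hypoxia over control shifted from 0.05 to −0.10, and the called genes changed from 252 higher and 624 lower to 188 and 949.

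Per kb of exonic sequence the levels in control ran from Idh1 at 132 CPM per kb through Ogt at 22.2, Apex1 at 15.4, Tet3 at 7.79, Smug1 at 3.72, Tet1 at 3.42, Tdg at 2.70, Tet2 at 2.29 and Mbd4 at 1.3 to Neil1 at 1.21 CPM per kb. The counting intervals of neighbours overlapped for Smug1 and Tet1, for Tdg and Tet2, and for Mbd4 and Neil1. In hypoxia Tdg (4.14 CPM per kb) and Tet3 (3.78) had overlapping intervals, and with T3 the intervals of Tet3 (4.26) and Tdg (4.04) overlapped, as did those of Tdg and Tet1 (4.0). When the longest transcript was used in place of all exons, Tet2 came before Tet1 in all 3 libraries. Gene-level values do not separate the isoforms of a gene.

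Other genes of the route were taken from lists beside the members. Of 11 further TET regulators with enough reads none was called in hypoxia over control, and 5 were above 0. Hmces, a reader of hydroxymethylcytosine and abasic sites, was 1.67-fold higher (1.39 to 2.01). Vprbp, the substrate receptor DCAF1 of a ubiquitin ligase that modifies TET enzymes, was 1.57-fold lower (1.39 to 1.79). Cxxc4, which binds TET2 and lowers its protein, was 1.38-fold lower (1.24 to 1.53), and the corepressor scaffold Sin3a 1.32-fold lower (1.18 to 1.47). Cxxc5, named after its values were seen, had the same order of libraries as Tet1, at 10.8, 8.06 and 12.7 CPM. It was 1.58-fold higher with T3 than without it under hypoxia (1.29 to 1.94).

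Base excision repair downstream of the glycosylases was mostly level. None of 13 further genes of this list was called in hypoxia over control, 7 were above 0, and their median log2 ratio was 0.03. The largest ratio was that of Pcna, the sliding clamp of DNA synthesis, at 55.4, 103 and 108 CPM, 1.86-fold higher in hypoxia than in control (1.73 to 2.0). Fen1, the flap endonuclease, was 1.38-fold higher (1.17 to 1.64), and Tdp1 and Apex2, which clear blocked DNA ends, were lower, Tdp1 by 1.39-fold (1.19 to 1.63) and Apex2 by 1.47-fold (1.07 to 2.03). Of 7 other glycosylases 5 reached a mean of 1 CPM, and none of the 5 was called. Mpg, which removes alkylated bases, was 1.48-fold higher in hypoxia (1.13 to 1.95). Neil3, a relative of Neil1 found in dividing cells, was low at 1.34, 0.773 and 1.32 CPM, and its differences were within counting error. Of 5 AID/APOBEC deaminases, once proposed as another route of demethylation, only Apobec1 reached a mean of 1 CPM, and its fold of 1.04 had an interval from 0.540 to 1.97.

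The GADD45 genes, stress-induced adaptors proposed to recruit TDG, were far higher in both hypoxic libraries. All 3 were called as higher in each, beside 1.99% of all genes in hypoxia over control and 2.06% in hypoxia with T3 over control. Gadd45a had 1.2, 7.62 and 9.44 CPM. For Gadd45b the values were 1.53, 56.1 and 65.3 CPM, and for Gadd45g 3.75, 63.9 and 57.5 CPM.

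Of 18 genes besides Idh1 that make, move or consume the TET cofactor 2-oxoglutarate or its relatives, 15 had a log2 ratio above 0 in hypoxia over control, with a median of 0.34. Of all genes 54.5% were above 0, with a median of 0.05. By span class the medians ran from 0.33 for genes under 10 kb to −0.37 for those of 300 kb and over. This list was not compared with genes of like span. With equal sums 12 of the 19 with Idh1 were above 0, beside 41.1% of all genes. Idh3b, a subunit of the mitochondrial isocitrate dehydrogenase, was 1.47-fold higher in hypoxia (1.37 to 1.57), the succinate dehydrogenase subunit Sdhd 1.42-fold (1.32 to 1.52) and the aminotransferase Got2 1.40-fold (1.34 to 1.46). Slc25a11, the mitochondrial carrier of 2-oxoglutarate, was 1.38-fold higher (1.27 to 1.49). Slc23a2, the neuronal transporter of ascorbate, which keeps TET iron reduced, was 1.66-fold lower in hypoxia (1.53 to 1.80), at 80.8, 48.7 and 57.5 CPM. Slc23a1, the other ascorbate transporter, was near 1 CPM throughout.

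**Figure D5:**
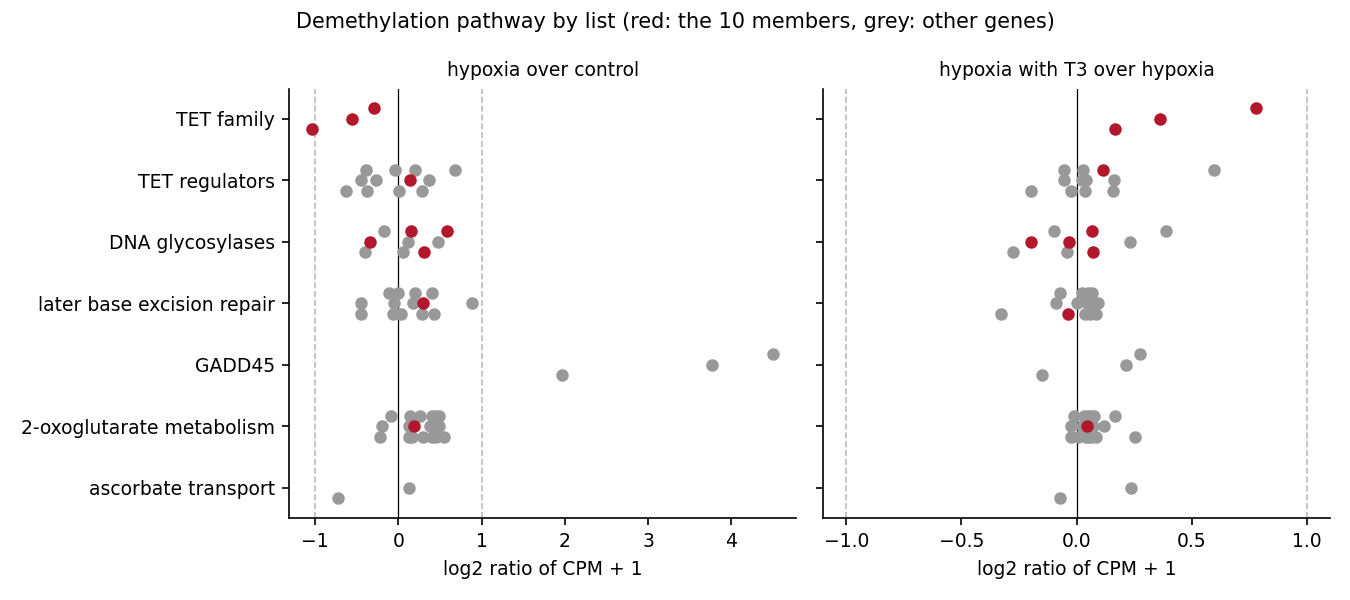
Log2 ratio of CPM + 1 for the genes of 7 lists of the demethylation route (red, the 10 members; grey, other genes; dashed lines, 2-fold), with different axes for the 2 comparisons. The TET genes lie left of 0 for hypoxia over control and right of 0 for hypoxia with T3 over hypoxia, and the GADD45 genes lie far right in the first.

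Markers of other cell types moved with some of these values. The 8 oligodendrocyte lineage markers summed to 345, 201 and 202 CPM, and 2 of the 8, Pdgfra and Olig2, were called as lower in both hypoxic libraries. The 6 progenitor and cycling markers summed to 246, 223 and 241 CPM, with a median log2 ratio of 0.13 in hypoxia over control. Of these 6, Mki67 (69.4, 34.8 and 41.8 CPM) and Top2a (57.0, 36.8 and 43.0 CPM) were below control in hypoxia, and Sox2, Nes, Pax6 and Eomes were above it. The 8 neuron markers summed to 6329, 6495 and 6443 CPM, with a median of 0.31. Among them Nefl was called as higher in hypoxia, by 2.27-fold (2.14 to 2.41), and Tubb3 as lower, by 2.03-fold (1.99 to 2.07). Astrocyte markers summed to 450, 445 and 469 CPM. These did not move as one, and the median log2 ratio of the 6 compared was 0.004 with T3 over hypoxia. Gfap went opposite to Tet1, at 15.2, 23.7 and 13.9 CPM. It was 1.71-fold lower with T3 than without it under hypoxia (1.48 to 1.98), a ratio that 18 genes matched or went below. Slc1a2 was lowest in hypoxia, as Tet1 was, but highest in control, at 177, 140 and 169 CPM. It was 1.21-fold higher with T3 than without it under hypoxia (1.15 to 1.27). Slc1a3 and Aldh1l1 were lowest in control and highest with T3. Microglial markers summed to 1.55 to 1.79 CPM with Tmem119 at 0 in both hypoxic libraries, and endothelial markers to 1.66 to 1.99 CPM with Cldn5 at 0 in both. The part of these cell types in the TET values was not tested. From hypoxia to hypoxia with T3 neither Tet1 nor any marker was called at 2-fold.

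The authors' deposited tables list all 10 genes in both comparisons with control. For hypoxia over control, the authors' deposited table gives Tet3 a signed fold of −2.15, where a minus sign marks a lower value, with a p-value of 0.0761 and a false discovery rate of 0.938. In the authors' deposited table Tet1 has −1.55 and 0.999, and Tet2 −1.28 and 0.999, as fold and false discovery rate. For hypoxia with T3 over control, the authors' deposited table gives Tet3 −1.92 and Tet1 1.11, both with a false discovery rate of 1. The labels do not name the test used on 1 library against 1.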

How the data were processed

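The authors deposited a table of CPM values for 24054 genes in 3 libraries, scaled by TMM factors as the name of the deposited table says, with bcl2fastq 2.17, Bowtie2 2.1.0, RSEM 1.2.15 and mm10 named in the submitters' processing notes. They also deposited 2 comparison tables with, per the file headers, a signed fold, p-values, false discovery rates, and signal columns whose scale is not given and which were not used.

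In each library 100% of CPM values were whole multiples (within 0.01) of 1 read, so reads were recovered: 18081904 for the control library, 17118865 for hypoxia without T3 and 22533574 with it. These are reads as assigned to genes by the authors. How reads shared between genes were allotted is not given in the sources used here, and no interval covers it. No count test was run, since 1 library a group leaves no estimate of spread. Log2 ratios used CPM + 1 over 12692 genes whose mean reached 1 CPM. For each fold, an exact Clopper-Pearson interval was computed for how a gene's reads divide between 2 libraries. A count of 0 allows 3 reads, 0.128 to 0.166 CPM. The ratio and interval steps were tested on simulated data. Named genes were the members, up to 4 genes per list with the largest absolute log2 ratios of hypoxia over control, the 5 nearest neighbours of Tet3 and 7 label checks. Members and lists were chosen with earlier results of these data known. GENCODE M21 on GRCm38 (mm10) gave positions for 12121 genes by symbol and 486 by synonym. Promoters are from RefSeq (GRCm38.p6), which held all 10 members. Tools were Python 3.11.15, numpy 2.4.6, pandas 2.3.3, scipy 1.17.1, matplotlib 3.10.9 and, for an alternative scaling, edgeR 4.0.16 in R 4.3.3. Alternatives were equal sums, pseudocounts of 0.5 and 0.1 CPM, no filter, a filter at 5 CPM and a 1.5-fold rule. A gene of the 2-oxoglutarate list is not reported here and was left out of the counts of that list.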

Additional observations from a re-analysis of the deposited data

How the results depend on the processing

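With 1 library a group, leaving out a replicate was impossible. No paired analysis was possible because each group has a single library. The count of members past 2-fold in hypoxia with T3 over control, 0, became 1 (Tet3) with libraries scaled to equal sums and 1 (Tet3) under a 1.5-fold rule, and that in hypoxia with T3 over hypoxia, 0, became 1 (Tet1) under the 1.5-fold rule. The members' median log2 ratio in hypoxia with T3 over control, 0.23, was 0.048 with equal sums, where that of all genes was −0.10. The median in hypoxia over control, 0.15, was −0.015 with equal sums, a shift smaller than the median half-width of the members' counting intervals. The other member counts did not change under equal sums, the smaller pseudocounts, both filters, the 1.5-fold rule or TMM factors recomputed from the recovered reads, an alternative chosen after seeing the data. The other medians, run under the same settings except the filters and the 1.5-fold rule, shifted by less than that half-width. Of all genes, the share called in hypoxia with T3 over hypoxia was 0.189%, or 0.488% with 0.1 CPM added, and that in hypoxia over control was 6.90%, or 3.70% with no filter. Single log2 ratios left their counting interval in 11 of 30 cases with equal sums and in 5 of 30 with recomputed factors. With equal sums these included Tet1, Tet2 and Tet3 in hypoxia over control, which became 1.67-fold, 1.38-fold and 2.32-fold lower. Equal sums turned the direction of Mbd4 and Ogt in hypoxia over control and of Tet2 in hypoxia with T3 over control, where recomputed factors turned Tet2 too. Summing Tdg with Gm9855, also chosen afterwards, took its hypoxic log2 ratio from 0.58 to 0.06, a value set largely by the level of Gm9855. The cause was not tested. Depth limits Neil1 (49 to 76 reads) and Mbd4 (140 to 192 reads).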

Other observations

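The genes nearest to Tet1 in the plane of the 2 log2 ratios used for Tet3, chosen after the values were seen, were Rnaset2a, Wipf3, Gdf10, Hivep3 and Moap1, at distances of 0.07 to 0.21. Wipf3, an actin-regulating protein, had 35.5 CPM in the control library, 26.2 without T3 under hypoxia and 43.5 with T3. Gdf10, a TGF-beta family ligand, was at 12.6, 9.0 and 18.0 CPM, Hivep3, a zinc finger factor, at 31.8, 23.5 and 45.8 CPM, and Moap1, a BAX-binding protein, at 19.7, 14.0 and 28.2 CPM. Their spans run from 1.43 kb for Moap1 to 404 kb for Hivep3. The genes besides Tet1 that were as low in hypoxia and above control with T3 included Kcnj10, a glial potassium channel, Neat1, a nuclear long noncoding RNA, Mfap3l, Adamts2, Btbd17, Cys1 and H2-T22.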
